A study of Mus musculus with 96 samples.

Results

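Interscapular brown adipose tissue (iBAT) of mice lacking uncoupling protein 1 was compared with that of wild-type mice, both kept at 20 °C on control diet, across all genes of the deposited expression table. The members were taken from the labels alone: 8 libraries labelled UCP1(-/-) (numbered 9 to 16) and 8 labelled wildtype (numbered 1 to 8), 16 of the 96 libraries of the series. The study crossed these 2 genotypes of male C57BL/6J mice with 3 conditions for 4 weeks, namely 20 °C with control diet, or 30 °C with control or high fat diet, and took iBAT and inguinal white adipose tissue (iWAT) from 6 groups of 8 animals. The control diet held 13% of its energy as fat. The knockout group is called Ucp1-KO here. The region of Ucp1 missing from the allele and the age of the animals are not stated in the labels, and all 16 animals shared sex, strain, diet and temperature. Each library stands for 1 animal, so the p-values below measure the spread between animals.

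Brown adipocytes are rich in mitochondria and carry UCP1 in the inner mitochondrial membrane, where it lets protons return to the matrix without ATP synthesis, so that the energy of substrate oxidation is released as heat. Cold raises sympathetic noradrenaline release onto these cells, which drives lipolysis, UCP1 activity and the transcription of thermogenic genes. For mice 20 °C is below thermoneutrality, so brown fat is under sympathetic drive at that temperature. Stress in mitochondria or the endoplasmic reticulum can activate the integrated stress response, in which phosphorylation of the translation factor eIF2 alpha favours translation of ATF4. ATF4 in turn drives genes for amino acid synthesis, amino acid import and tRNA charging, and the hormones FGF21 and GDF15.

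All values are RPKM as deposited, read counts scaled to transcript length and library size. Differences are Ucp1-KO minus wild type on the log2(RPKM + 1) scale with the standard error (SE) of the limma fit, and this scale understates the change of genes with low values. A gene was called where limma's adjusted p (Benjamini-Hochberg over all genes tested) was under 0.05. The steps between low values gave about 9.47e+06 to 1.42e+07 counted reads per library, at which 1 read on a 1 kb transcript is worth 0.0704 to 0.106 RPKM. Recovered depth was 1.14e+07 reads (SD 1.17e+06, n = 8) in wild type and 1.22e+07 reads (SD 1.30e+06, n = 8) in Ucp1-KO, with a two-sided exact permutation p of 0.184. The tissue label fitted the markers: the brown adipocyte genes Cidea (1224 to 1898 RPKM) and Cox8b (1330 to 2633 RPKM) were high in all 16 libraries, while the posterior white depot genes Hoxc9 and Hoxc10 and 5 epithelial keratin and adhesion genes stayed at or under 0.160 RPKM. Other genes typical of white depots were detected at low levels: Hoxc8 at 2.10 to 5.27 RPKM, Lep at 0.732 to 4.42 RPKM and Nnat at 1.56 to 11.2 RPKM. Libraries 2 (wild type) and 16 (Ucp1-KO) were least like their own genotype, with median correlations of 0.975 and 0.973 against 0.980 to 0.989 for the others, and both held the most skeletal muscle RNA. In bulk tissue, fewer cells of a type and less RNA per cell cannot be told apart.

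Ucp1 RNA was lower in every Ucp1-KO library but was not absent. In wild type the lowest, median and highest levels were 2428, 4016 and 4550 RPKM, and in Ucp1-KO they were 867, 993 and 1145 RPKM. The groups did not overlap, and the difference was -1.89 ± 0.12 (adjusted p = 4.34e-17). The table holds transcript totals without exon positions, so the deleted part of Ucp1 cannot be viewed separately, and the value checks the labels by direction alone.

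Of 14807 genes tested, 3661 (24.7%) were higher and 1940 (13.1%) lower in Ucp1-KO, so 37.8% differed in either direction. The median difference over all genes tested was 0.06. All 8 Ucp1-KO libraries lay above all 8 wild-type libraries for 1344 genes (9.08%) and below them for 540 genes (3.65%). Differences of 1 or more on the log2 scale were found for 336 genes that were higher and 85 that were lower. Higher genes made up 65.4% of the calls in RPKM as deposited, 52.0% after median-ratio scaling of the libraries and 45.2% after quantile normalization. Shares of list members below are read against the background of 24.7% higher and 13.1% lower. Where a list has 0 calls in a direction by limma, its count in that direction at an unadjusted p under 0.05 was also 0, except for 1 gene each in the complex I (Ndufs3, higher), extracellular matrix (Col15a1, lower), stromal (Thy1, higher) and interferon (lower) lists. Ndufs3 was called without library 16, Col15a1 without library 12, after either scaling and in a fit over 16 libraries, and Thy1 without library 13 and in the same smaller fit.

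The 12 largest increases among genes at 5 RPKM or more were Gdf15, Fgf21, Scd3, Ptgds, Mthfd2, Lhfpl2, Trib3, Gpnmb, Lgals3, Map1b, Nceh1 and Acot2, with differences from 4.83 ± 0.35 down to 2.96 ± 0.17. The 12 largest decreases ran from Irf4 through Rbp4, Car3, Ucp1, Vat1l, Cfd, Ano1, Ntrk3, Gpx3, Prodh and Rasd1 to Btc, from -2.62 ± 0.26 to -1.66 ± 0.11. None of these 24 genes had overlapping groups.

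**Figure D1:**
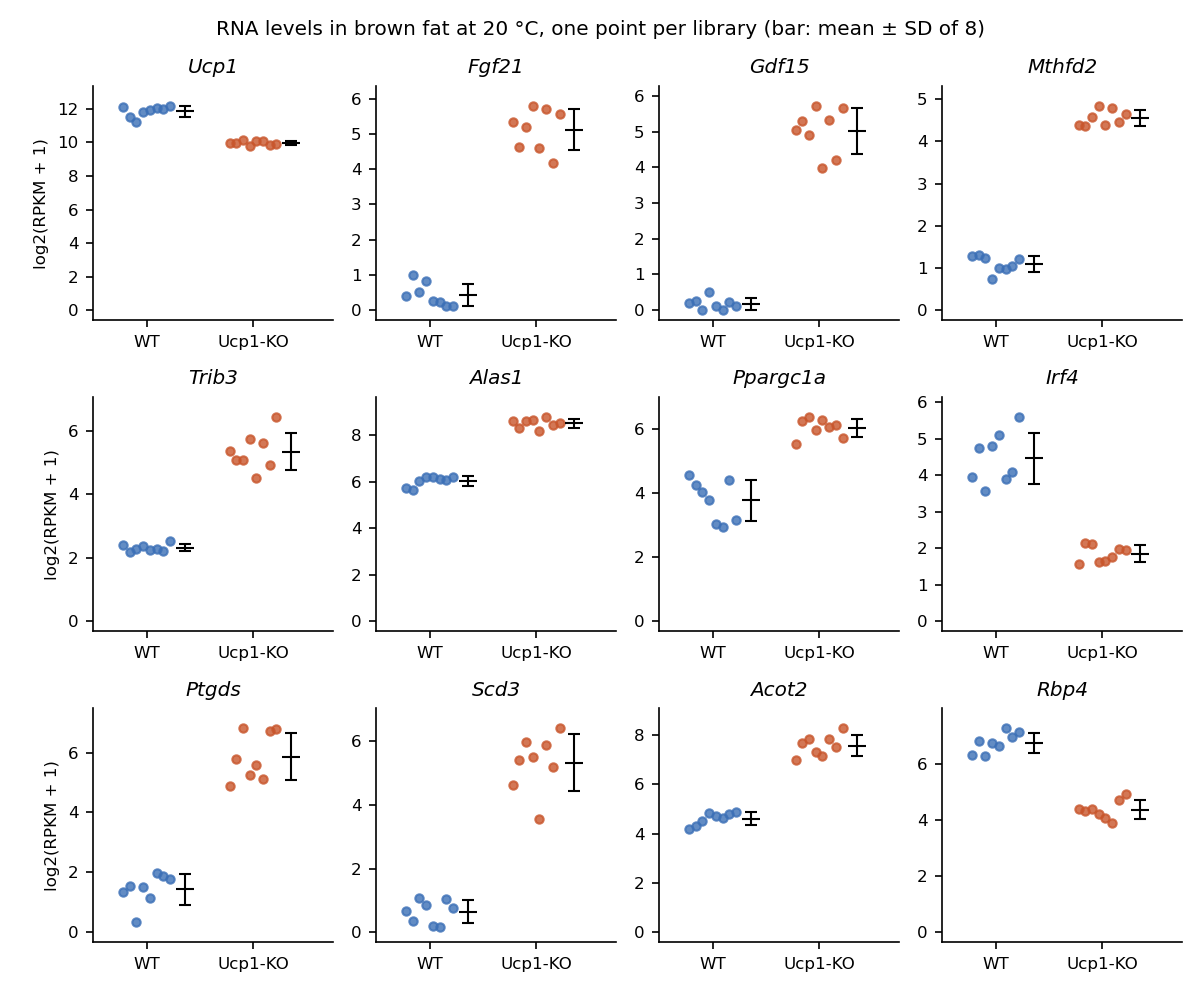
RNA level on the log2(RPKM + 1) scale (vertical axis) of 12 genes in the 8 wild-type (WT, blue) and 8 Ucp1-KO (orange) brown fat libraries at 20 °C. Each point is a library and the bar is the mean ± SD. The genotypes are separate in all 12 panels, with Ucp1, Irf4 and Rbp4 lower and the other 9 genes higher in Ucp1-KO.

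The 2 hormones of the integrated stress response were near the detection limit in wild type and abundant in Ucp1-KO. Fgf21, a hormone that acts through the receptor FGFR1 and the co-receptor beta-Klotho, ran from 0.0924 through a median of 0.259 to 0.979 RPKM in wild type and from 17.2 through 37.3 to 54.0 RPKM in Ucp1-KO, a difference of 4.69 ± 0.22 (limma, adjusted p = 2.33e-21). Gdf15, a hormone that reduces food intake through a hindbrain receptor, ran from 0 through 0.123 to 0.425 RPKM and from 14.8 through 35.2 to 51.1 RPKM, a difference of 4.83 ± 0.35 (adjusted p = 1.36e-15). For both hormones the lowest Ucp1-KO library lay far above the highest wild-type library. The beta-Klotho gene Klb rose (0.49 ± 0.18, a call lost without library 15 and after either scaling) and the receptor gene Fgfr2 fell (-0.48 ± 0.13), while Fgfr1 (-0.08 ± 0.10) and Fgfr3 (-0.06 ± 0.09) did not pass the test.

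Of 20 transcription factors and regulators of the integrated stress response, 10 rose and 3 fell, with a list median of 0.24. Atf4, the central transcription factor of the response, rose from 67.8, 72.5 and 97.1 RPKM (lowest, median and highest wild-type library) to 162, 192 and 256 RPKM, a difference of 1.38 ± 0.10 (limma, adjusted p = 4.1e-15). Atf5, a related factor tied to mitochondrial stress, rose from 81.4, 102 and 134 RPKM to 352, 395 and 486 RPKM (1.98 ± 0.13). Trib3, a pseudokinase induced by ATF4, rose from 3.53, 3.87 and 4.72 RPKM to 22.0, 36.5 and 85.1 RPKM (3.03 ± 0.19), a 10.8-fold ratio of the means. The groups did not overlap for these 3 genes. Ddit3, which encodes CHOP (2.27 ± 0.18), Atf3 (2.76 ± 0.26) and Ppp1r15a, which encodes the eIF2 alpha phosphatase subunit GADD34 (1.66 ± 0.12), also rose. Chac1, a glutathione-degrading enzyme, rose by 1.47 ± 0.34 (adjusted p = 0.000513), but its groups overlapped: 2.25 to 8.01 RPKM in wild type and 6.85 to 22.6 RPKM in Ucp1-KO. The 4 eIF2 alpha kinase genes Eif2ak1 to Eif2ak4 lay between -0.14 and 0.26 and none passed the test. Eif2ak1 was called lower after median-ratio scaling (-0.22) and quantile normalization (-0.25), Eif2ak2 higher in a fit over 16 libraries and Eif2ak4 higher with transcripts summed (0.27). Oma1, the inner membrane protease upstream of a mitochondrial branch of the response, fell (-0.62 ± 0.18), a call lost when its transcripts were summed (-0.26), and Cebpb fell too (-0.43 ± 0.12). The OMA1 substrate DELE1 is encoded by a gene listed as 0610009O20Rik, which fell by 0.24 ± 0.09 on the log2 scale and lost its call without library 5, 6, 11, 13 or 15 and in a fit over 16 libraries.

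**Figure D2:**
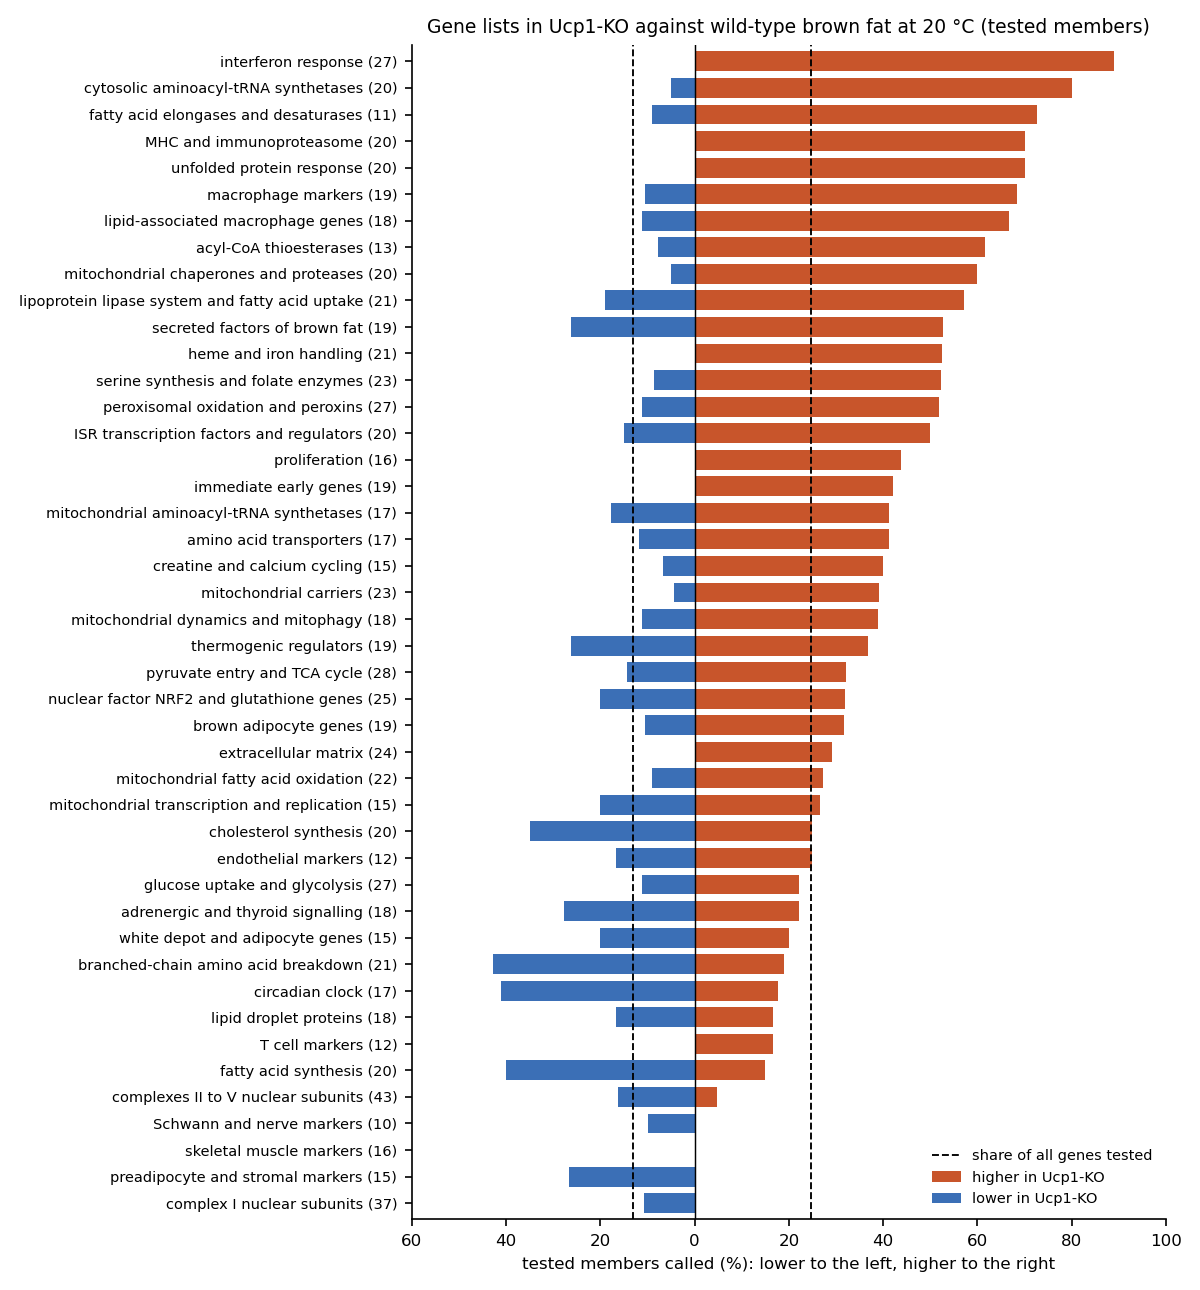
Share of tested members called higher (orange, right) or lower (blue, left) in Ucp1-KO for the gene lists with 10 or more tested members, with the number tested in parentheses. Dashed lines mark the shares among all 14807 genes tested, 24.7% higher and 13.1% lower; the interferon list reached the largest share higher and branched-chain amino acid breakdown the largest share lower.

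ATF4 acts with C/EBP family partners at a composite DNA element, so the promoter windows of stress response members were searched for its letters TGATGNAA on both strands (N is any base). Windows were the 250 bases before the RefSeq start on GRCm38.p6. The 6 windows below are shown because they hold the element and their genes rose in Ucp1-KO; capitals mark the match, which reads TTNCATCA where it lies on the other strand.
Fgf21, chr7:45615491-45615740, minus strand: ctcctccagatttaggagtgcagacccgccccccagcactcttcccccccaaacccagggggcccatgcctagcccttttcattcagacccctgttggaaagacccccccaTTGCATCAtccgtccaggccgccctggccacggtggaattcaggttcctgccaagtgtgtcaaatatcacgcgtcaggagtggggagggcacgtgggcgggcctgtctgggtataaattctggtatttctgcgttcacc
Atf3, chr1:191183334-191183583, minus strand: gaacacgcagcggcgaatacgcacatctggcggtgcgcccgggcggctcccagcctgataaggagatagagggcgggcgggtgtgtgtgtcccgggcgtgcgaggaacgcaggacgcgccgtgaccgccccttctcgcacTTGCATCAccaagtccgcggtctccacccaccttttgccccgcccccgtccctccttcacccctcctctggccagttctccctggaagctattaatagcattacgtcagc
Chac1, chr2:119350992-119351241, plus strand: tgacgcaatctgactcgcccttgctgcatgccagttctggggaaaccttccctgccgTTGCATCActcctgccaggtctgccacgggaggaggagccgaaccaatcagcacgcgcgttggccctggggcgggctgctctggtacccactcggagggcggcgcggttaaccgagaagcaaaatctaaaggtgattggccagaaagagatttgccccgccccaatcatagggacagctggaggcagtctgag
Asns, chr6:7693210-7693459, minus strand: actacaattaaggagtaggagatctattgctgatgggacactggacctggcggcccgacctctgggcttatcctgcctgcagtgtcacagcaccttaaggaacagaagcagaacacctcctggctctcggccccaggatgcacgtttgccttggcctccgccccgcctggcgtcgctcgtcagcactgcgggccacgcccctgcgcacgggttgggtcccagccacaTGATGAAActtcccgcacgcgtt
Aars, chr8:111033592-111033841, plus strand: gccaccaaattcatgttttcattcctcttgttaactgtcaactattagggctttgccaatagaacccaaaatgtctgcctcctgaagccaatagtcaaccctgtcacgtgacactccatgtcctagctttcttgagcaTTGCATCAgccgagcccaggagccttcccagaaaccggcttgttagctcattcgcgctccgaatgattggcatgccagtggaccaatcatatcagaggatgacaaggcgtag
Gars, chr6:55037751-55038000, plus strand: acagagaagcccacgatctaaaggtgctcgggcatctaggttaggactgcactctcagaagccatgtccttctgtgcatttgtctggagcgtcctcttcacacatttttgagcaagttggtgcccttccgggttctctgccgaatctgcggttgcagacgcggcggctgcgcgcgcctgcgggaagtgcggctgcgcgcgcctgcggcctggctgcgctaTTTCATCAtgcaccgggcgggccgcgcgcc
The match began 139 bases before the start in Fgf21, 110 in Atf3, 193 in Chac1, 23 in Asns, 112 in Aars and 30 in Gars.

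The element was found in 3.45% of all 32851 promoter windows and in 2.54% of the 11001 genes tested that had one. It was in the windows of 87 of 2821 higher genes (3.08%) and 34 of 1422 lower genes (2.39%). Among list members with a window it was found in 3 of 17 stress response regulators, 3 of 17 serine and folate enzymes, 3 of 13 cytosolic aminoacyl-tRNA synthetases and 0 of 14 mitochondrial ones. The element was in 2 of 13 amino acid transporters, Slc7a7 and Slc7a11, neither of which passed the test. It was also in 4 of 14 lipoprotein lipase and fatty acid uptake genes, and the stress response match in Nupr1 belonged to a gene that did not pass the test (0.07 ± 0.14). These letter matches describe the windows and are not measured binding sites.

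Genes that make serine, glycine and proline and charge folate with one-carbon units were largely higher in Ucp1-KO, 12 of 23 rising and 2 falling, with a list median of 0.45. Mthfd2, a mitochondrial folate enzyme with low levels in most adult tissues, ran from 0.668 through 1.19 to 1.49 RPKM in wild type and from 19.7 through 22.0 to 27.4 RPKM in Ucp1-KO (3.46 ± 0.21, limma, adjusted p = 2.91e-18), a 19.6-fold ratio of the means. Psat1, a serine synthesis enzyme, ran from 1.50 through 2.82 to 3.39 RPKM and from 9.15 through 15.3 to 27.3 RPKM (2.13 ± 0.18). The groups did not overlap for either gene. Cth, which makes cysteine (2.12 ± 0.21), Aldh18a1, the first enzyme of proline synthesis (1.43 ± 0.16), Pck2, the mitochondrial phosphoenolpyruvate carboxykinase (1.29 ± 0.11), Asns, asparagine synthetase (1.05 ± 0.10), and Shmt2, the mitochondrial serine hydroxymethyltransferase (0.90 ± 0.08), rose as well. Phgdh, the first enzyme of serine synthesis, did not pass the test (0.38 ± 0.16, limma, adjusted p = 0.0569), but it was called with transcripts summed (0.67), a pseudocount of 0.1 RPKM (0.77), a fit over 16 libraries and without library 2, 8, 11 or 16, and the folate dehydrogenase Aldh1l1 fell (-0.97 ± 0.25).

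Of 17 amino acid transporters, 7 rose and 2 fell. Both chains of the large neutral amino acid exchanger rose: the heavy chain Slc3a2 by 1.46 ± 0.09 and the light chain Slc7a5 by 1.79 ± 0.13, from 0.0825, 0.164 and 0.306 RPKM to 1.92, 3.04 and 4.64 RPKM. The cationic amino acid transporter Slc7a1 (1.41 ± 0.13) and the glutamine transporter Slc38a2 (1.02 ± 0.12) followed. Slc1a5, which exchanges glutamine for other neutral amino acids, went the other way, from 166, 189 and 229 RPKM in wild type to 73.2, 91.4 and 111 RPKM (-1.07 ± 0.15).

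Aminoacyl-tRNA synthetases attach amino acids to tRNAs, and those of the cytosol and of the mitochondrion are mostly encoded by separate genes. Of 20 cytosolic synthetase genes 16 rose and 1 fell (median 0.59), against 7 and 3 of 17 mitochondrial ones (median 0.15). Wars, for tryptophan, ran from 14.2 through 15.5 to 16.8 RPKM in wild type and from 54.1 through 65.7 to 81.3 RPKM in Ucp1-KO (2.04 ± 0.11, limma, adjusted p = 5.14e-20). Eprs (1.39 ± 0.12), Nars (1.22 ± 0.08), Gars (1.21 ± 0.08), Sars (1.19 ± 0.09), Yars (1.12 ± 0.07) and Aars (1.09 ± 0.07) also rose by more than 1, whereas Qars, for glutamine, fell (-0.31 ± 0.07). On the mitochondrial side Cars2, for cysteine, rose from 9.60, 11.2 and 13.0 RPKM to 38.6, 54.9 and 70.3 RPKM (2.16 ± 0.18). The other 6 mitochondrial synthetases that rose did so by 0.27 to 0.38.

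**Figure D3:**
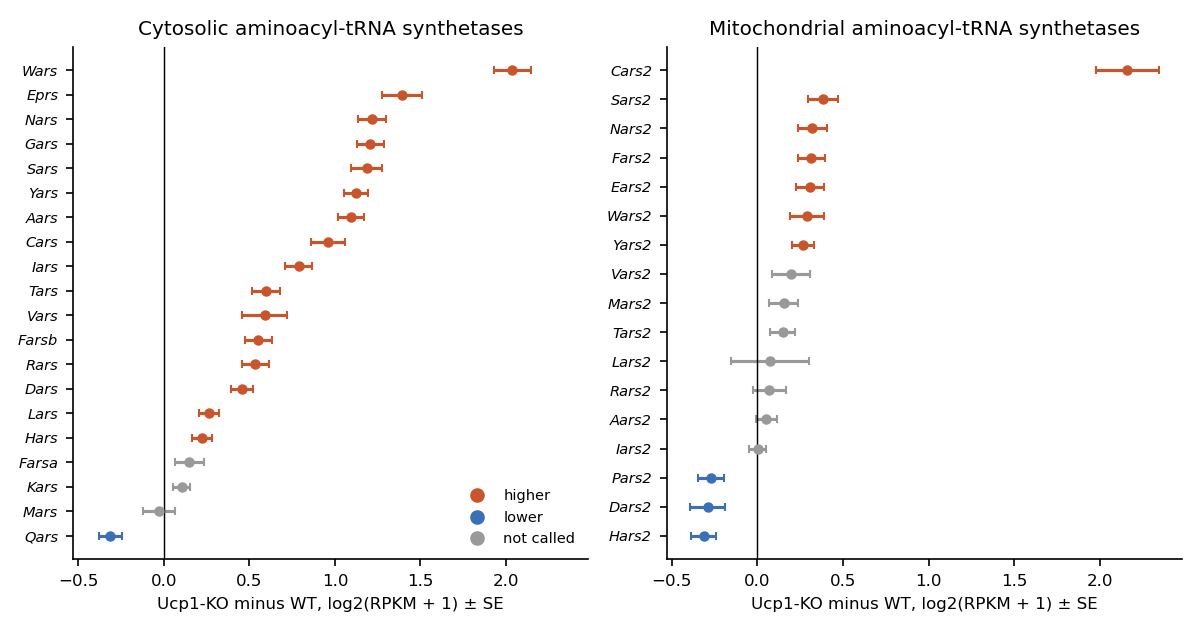
Difference Ucp1-KO minus wild type ± SE on the log2(RPKM + 1) scale (horizontal axis) for the cytosolic (left) and mitochondrial (right) aminoacyl-tRNA synthetase genes, ordered by size, with called genes in orange (higher) and blue (lower). Most cytosolic genes lie to the right of 0, while Cars2 stands apart from the other mitochondrial genes.

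Protein-folding genes rose in both the endoplasmic reticulum and the mitochondrion. Of 20 unfolded protein response genes 14 rose and 0 fell (median 0.32); 9 rose after quantile normalization. Manf, a secreted stress-inducible protein of the endoplasmic reticulum (1.20 ± 0.13), the sensor Atf6 (0.98 ± 0.09) and the degradation adaptor Sel1l (0.78 ± 0.06) led this list, and the chaperone Hspa5, or BiP, rose by 0.57 ± 0.06. Xbp1 did not pass the test (0.01 ± 0.13). Of 20 mitochondrial chaperones and proteases 12 rose and 1, Oma1, fell (median 0.26). Lonp1, the matrix protease LON, rose from 65.9, 69.4 and 74.0 RPKM to 129, 184 and 220 RPKM with no overlap (1.36 ± 0.10). The matrix chaperone Hspa9 (0.90 ± 0.07), its exchange factor Grpel2 (0.90 ± 0.08) and the chaperonin Hspd1 (0.46 ± 0.10) rose, and its partner Hspe1 did not pass the test (-0.03 ± 0.15).

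Most nuclear genes of the respiratory chain did not pass the test. Of 37 complex I subunits 0 rose and 4 fell (median -0.04), and of 43 subunits of complexes II to V 2 rose and 7 fell (median -0.09). The complex I count fell to 2 without library 5, 6 or 8, and the second count to 4 without library 5 and 3 without library 6, while after median-ratio scaling and quantile normalization 6 and 8 complex I subunits and 13 and 12 genes of complexes II to V fell. Among the genes that fell were Ndufa1 (-0.59 ± 0.13) and Uqcr11 (-0.54 ± 0.13). All 7 tested genes of the mitochondrial genome were lower (median -0.64). COX1, a core subunit of cytochrome oxidase, ran from 23940 through 26401 to 28100 RPKM in wild type and from 8386 through 17011 to 20899 RPKM in Ucp1-KO (-0.82 ± 0.16). ND6 (-0.63 ± 0.16), ND5 (-0.61 ± 0.15) and ND4L (-0.64 ± 0.18) fell in RPKM as deposited. After quantile normalization the differences of ND4L (0.00) and ND5 (-0.06) were near 0 and their calls were lost, while COX1 (-0.29) and ND6 (-0.32) kept theirs. COX2, COX3 and ND3 had group means under 10 RPKM, so their counting is uncertain. COX3 lost its call without library 4, 7 or 8, and ND3 lost it without any 1 of libraries 2, 6, 7, 8, 10, 11, 12, 14 and 16. The mitochondrial calls fell to 5 after quantile normalization and to 2 with no filter on low values. Of 15 genes for mitochondrial transcription and replication 4 rose and 3 fell, Tfam by 0.23 ± 0.07 (a call lost after either scaling), and the 3 became 1 without library 5, 8 or 14.

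Of 18 mitochondrial dynamics and mitophagy genes 7 rose and 2 fell. The autophagy genes Gabarapl1 (1.08 ± 0.09) and Sqstm1 (0.74 ± 0.17) rose, the mitophagy receptor gene Bnip3 fell (-1.09 ± 0.16), and Opa1, Dnm1l and Pink1 lay between -0.13 and 0.03 without passing the test. Among 23 mitochondrial carriers 9 rose and 1 fell besides Ucp1 itself. Slc25a34 (1.88 ± 0.22) and Ucp2 (1.18 ± 0.15) rose, Ucp3 fell (-0.82 ± 0.23), and the ADP/ATP carriers Slc25a5 (0.37 ± 0.06, called) and Slc25a4 (-0.09 ± 0.22, not called) gave different calls.

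Of 21 genes in a mixed list of heme synthesis, heme breakdown and iron handling, 11 rose and 0 fell (median 0.30). Alas1, the rate-limiting enzyme of heme synthesis outside red cells, ran from 48.4 through 68.0 to 73.5 RPKM in wild type and from 290 through 378 to 436 RPKM in Ucp1-KO (2.49 ± 0.12, limma, adjusted p = 1.76e-21), a 5.66-fold ratio of the means. Heme breakdown genes rose too: Hmox1 ran from 9.30 through 14.6 to 19.7 RPKM and from 28.1 through 36.1 to 78.3 RPKM (1.41 ± 0.22), and Hmox2 rose by 1.01 ± 0.07. The groups did not overlap for Alas1 or Hmox1. The transferrin receptor gene Tfrc (1.17 ± 0.14), the ferritin light chain gene Ftl1 (1.14 ± 0.13, a gene with many processed copies) and the carrier Slc25a39 (0.77 ± 0.13) also rose, while Fech, the last enzyme of heme synthesis, did not pass the test (0.10 ± 0.06). Of 25 NRF2 and glutathione genes 8 rose and 5 fell. Srxn1 (1.26 ± 0.19) and Gss (0.88 ± 0.11) rose, and the glutathione peroxidases Gpx1 (-0.73 ± 0.08) and Gpx3 fell, the latter from 809, 952 and 1290 RPKM to 175, 296 and 407 RPKM (-1.77 ± 0.19).

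The transcriptional regulators of thermogenesis moved in both directions, with 7 of 19 rising and 5 falling. Ppargc1a, the coactivator of mitochondrial biogenesis, ran from 6.66 through 14.1 to 22.8 RPKM in wild type and from 45.2 through 67.9 to 81.4 RPKM in Ucp1-KO (2.27 ± 0.24, limma, adjusted p = 9.96e-11). Its partner Irf4, a factor for cold-induced transcription in brown fat, ran from 10.8 through 21.1 to 47.2 RPKM and from 1.99 through 2.64 to 3.40 RPKM (-2.62 ± 0.26, adjusted p = 2.47e-11). Neither gene had overlapping groups, and the 2 moved in opposite directions. Ppara (0.52 ± 0.14) and Zfp516 (0.52 ± 0.11) rose, Prdm16 (-0.31 ± 0.10) and Twist1 (-0.32 ± 0.10) fell, and Ppargc1b (0.17 ± 0.12) and Esrra (0.20 ± 0.12) did not pass the test. With transcripts summed, Prdm16 lost its call (-0.29) and Esrra was called (0.26).

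Adrenergic and thyroid signalling genes were split, 4 of 18 rising and 5 falling; the 4 became 1 without library 3 and after either scaling. Rgs2, a brake on G protein signalling, fell (-1.58 ± 0.30), and Gnas, the stimulatory G protein subunit, rose (0.59 ± 0.10). Dio2, which makes active thyroid hormone inside the cell, overlapped between the groups, from 89.7 through 128 to 190 RPKM and from 118 through 155 to 214 RPKM (0.32 ± 0.19, limma, adjusted p = 0.17). Adrb3, the main adrenergic receptor of brown fat, gave 0.36 ± 0.19 and did not pass the test either.

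Of 19 genes typical of brown adipocytes 6 were higher and 2 lower in Ucp1-KO (median 0.19), shares near the background of all genes. Elovl3, a fatty acid elongase induced by cold, ran from 176 through 283 to 371 RPKM in wild type and from 812 through 996 to 1262 RPKM in Ucp1-KO with no overlap (1.87 ± 0.29, limma, adjusted p = 8.81e-07). The fatty acid binding protein gene Fabp3 (1.50 ± 0.24), Bmp8b, a secreted factor of brown fat (1.19 ± 0.15), the pyruvate dehydrogenase kinase Pdk4 (0.85 ± 0.11) and the potassium channel Kcnk3 (0.61 ± 0.16) rose. Cidea (-0.13 ± 0.14), Cox8b (-0.12 ± 0.17) and Cox7a1 (0.17 ± 0.15) did not pass the test. Of 15 genes of creatine and calcium cycling, routes proposed for heat production without UCP1, 6 rose and 1 fell. Atp2a3 (1.62 ± 0.13) and Atp2a2 (0.96 ± 0.11), which encode calcium pumps of the endoplasmic reticulum, Ckb, the cytosolic creatine kinase (1.24 ± 0.19), Alpl, a phosphatase (0.78 ± 0.12), and the creatine transporter Slc6a8 (0.50 ± 0.13) rose. The creatine synthesis genes Gamt (-0.21 ± 0.14) and Gatm (-0.15 ± 0.18) did not pass the test, and the muscle isoforms Atp2a1, Ckmt2 and Ryr1 had SEs from 0.62 to 1.04, as muscle RNA varied between libraries.

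Fatty acid synthesis genes were more often lower than higher, with 8 of 20 lower and 3 higher (median -0.23). Dgat2, which makes triglyceride, ran from 736 through 934 to 1402 RPKM in wild type and from 289 through 365 to 413 RPKM in Ucp1-KO with no overlap (-1.47 ± 0.18). Acaca, acetyl-CoA carboxylase (-1.09 ± 0.23), Srebf1 (-0.57 ± 0.14) and Fasn, fatty acid synthase (-0.98 ± 0.30, adjusted p = 0.0071 by limma, with overlapping groups), fell. Scd3, a stearoyl-CoA desaturase best known from skin, went the other way and ran from 0.129 through 0.625 to 1.12 RPKM and from 10.8 through 43.0 to 83.8 RPKM (4.69 ± 0.25). Its close relatives differed from it: Scd2 rose by 0.56 ± 0.20, a call lost without library 4, 7, 9 or 12, after quantile normalization and in a fit over 16 libraries, and Scd1, at means of 14728 and 10959 RPKM, did not pass the test (-0.45 ± 0.20), but was called after median-ratio scaling (-0.53), in a fit over 16 libraries and without library 9. Reads may be split among these similar genes.

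Genes for releasing and importing fatty acids and for their oxidation in peroxisomes were more often higher. Of 13 acyl-CoA thioesterases, which free fatty acids from coenzyme A, 8 rose and 1 fell (median 0.80). Acot2, the mitochondrial matrix form, ran from 17.1 through 24.6 to 28.3 RPKM in wild type and from 125 through 192 to 308 RPKM in Ucp1-KO (2.96 ± 0.17), an 8.24-fold ratio of the means, while its near-identical neighbour Acot1 did not pass the test (-0.37 ± 0.24), so their split is uncertain. Acot5 (2.23 ± 0.23), Acot12 (1.75 ± 0.14) and Acot4 (0.93 ± 0.14) rose. Of 27 peroxisomal genes 14 rose and 3 fell: the bifunctional enzyme Ehhadh ran from 77.1 through 89.8 to 118 RPKM and from 243 through 309 to 387 RPKM (1.70 ± 0.14), and Acox2 (1.53 ± 0.12) and Pex14 (0.81 ± 0.06) rose. In mitochondrial fatty acid oxidation 6 of 22 rose and 2 fell, close to the background. Cpt1a, the carnitine palmitoyltransferase typical of liver, ran from 4.01 through 4.44 to 4.99 RPKM and from 9.67 through 13.2 to 14.9 RPKM (1.28 ± 0.11), while Cpt1b, the form typical of muscle and brown fat, did not pass the test (0.22 ± 0.09, limma, adjusted p = 0.0512), but was called at 0.22 to 0.24 under 4 other settings and without library 8 or 15.

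Of 11 elongases and desaturases 8 rose, Elovl3 among them, and Elovl6 fell (-0.39 ± 0.15), a call lost without any 1 of libraries 1, 2, 3, 7, 10, 11, 13 and 16, after quantile normalization, with no filter and with transcripts summed. Of 21 genes of the lipoprotein lipase system and fatty acid uptake 12 rose and 4 fell. The fatty acid transporter gene Cd36 (0.56 ± 0.07), the acyl-CoA synthetase gene Acsl5 (0.80 ± 0.16) and the lipoprotein receptor gene Vldlr (0.76 ± 0.11) rose, Apoc1 (-1.14 ± 0.17) and Apoe (-0.97 ± 0.17) fell, and Lpl itself did not pass the test (0.12 ± 0.14), but was called with transcripts summed (0.35). Among 18 lipid droplet proteins 3 rose and 3 fell. Plin2, a droplet coat protein found in most tissues, ran from 327 through 361 to 391 RPKM in wild type and from 866 through 1269 to 1746 RPKM in Ucp1-KO (1.80 ± 0.14), while Plin1 (0.21 ± 0.10; called in a fit over 16 libraries) and Plin5 (0.20 ± 0.12) did not pass the test. Cholesterol synthesis split into 5 higher and 7 lower of 20, the 7 becoming 4 without library 10.

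In glucose metabolism the shares stayed near the background, with 6 of 27 glycolytic genes higher and 3 lower and 9 of 28 pyruvate and TCA cycle genes higher and 4 lower. Single genes stood out. Hk1, a hexokinase of low abundance in wild-type brown fat, ran from 9.94 through 13.4 to 17.2 RPKM and from 60.8 through 69.2 to 107 RPKM (2.36 ± 0.16), whereas Hk2 did not pass the test (-0.08 ± 0.12). The lactate transporter Slc16a1 rose (1.11 ± 0.13) and Pfkfb1 fell (-1.20 ± 0.17). Branched-chain amino acid breakdown was lower in 9 of 21 genes and higher in 4 (median -0.16). Ivd (-0.87 ± 0.09), Ppm1k, the phosphatase that activates the branched-chain dehydrogenase (-0.93 ± 0.20), and the mitochondrial transaminase Bcat2 (-0.72 ± 0.17) fell, while the cytosolic transaminase Bcat1 rose (1.05 ± 0.15).

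Interferon-stimulated genes, antiviral genes that cells switch on when interferon binds its receptor, were the list with the largest share of increases among lists with 10 or more tested members: 24 of 27 rose and 0 fell (median 0.99). Cxcl10, a chemokine, ran from 0 through 0.294 to 0.644 RPKM in wild type and from 2.86 through 4.58 to 8.78 RPKM in Ucp1-KO (2.13 ± 0.28, limma, adjusted p = 3.42e-08). Irf7, the factor that amplifies type I interferon, ran from 1.98 through 2.93 to 3.95 RPKM and from 4.65 through 15.3 to 37.4 RPKM (1.97 ± 0.26). Neither gene overlapped between the genotypes. All 8 Ucp1-KO libraries lay above all 8 wild-type libraries for 6 of the 27 genes, against 9.08% of all genes, and the others overlapped. Isg15 (1.92 ± 0.30), Rsad2 (1.83 ± 0.26), Usp18 (1.72 ± 0.24) and Ifit1 (1.56 ± 0.27) rose, while Irf1 (0.00 ± 0.14) and Irgm1 (0.26 ± 0.19) did not pass the test. Of 20 MHC and immunoproteasome genes 14 rose and 0 fell, from B2m (0.48 ± 0.12) to the class II genes H2-Eb1 (1.26 ± 0.20) and H2-Ab1 (1.03 ± 0.23). The count was 12 after quantile normalization and 11 without libraries 2 and 16. All 8 Ucp1-KO libraries lay above all 8 wild-type libraries for only 1 of these 20 genes, against 9.08% of all genes. The lowest summed RPKM of the MHC list was 707.9 in both genotypes. Reads of the H2-Q genes may be split among copies. The summed RPKM of the 27 interferon genes ran from 90.1 through 112.6 to 138.8 in wild type and from 107.5 through 230.4 to 437.7 in Ucp1-KO. The lowest Ucp1-KO sum, of library 13, lay inside the wild-type range, and the highest was that of library 16.

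The interferon-stimulated response element has the core GAAANNGAA, which was searched on both strands in the same windows. It was present in 13 of 20 interferon genes with a window (65.0%), of which 12 rose, against 7.13% of all windows and 7.61% of genes tested. The 4 windows below are shown as members that rose and hold it; capitals mark the matches, which read TTCNNTTTC on the other strand and overlap each other in Isg15, Ifit1 and Bst2.
Isg15, chr4:156200819-156201068, minus strand: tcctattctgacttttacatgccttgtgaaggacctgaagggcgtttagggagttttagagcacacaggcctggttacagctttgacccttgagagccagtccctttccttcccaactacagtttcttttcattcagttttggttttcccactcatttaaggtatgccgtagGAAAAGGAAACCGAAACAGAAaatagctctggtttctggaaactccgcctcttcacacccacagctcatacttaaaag
Ifit1, chr19:34640639-34640888, plus strand: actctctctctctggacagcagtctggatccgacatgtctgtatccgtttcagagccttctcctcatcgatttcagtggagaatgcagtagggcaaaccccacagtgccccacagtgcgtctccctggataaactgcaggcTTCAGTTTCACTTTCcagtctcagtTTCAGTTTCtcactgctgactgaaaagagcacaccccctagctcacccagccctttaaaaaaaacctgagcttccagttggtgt
Bst2, chr8:71537473-71537722, minus strand: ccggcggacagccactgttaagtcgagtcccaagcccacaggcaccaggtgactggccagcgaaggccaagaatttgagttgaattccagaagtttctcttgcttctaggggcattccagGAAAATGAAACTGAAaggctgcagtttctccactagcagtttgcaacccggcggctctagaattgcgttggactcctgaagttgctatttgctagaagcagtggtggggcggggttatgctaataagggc
Cxcl10, chr5:92348890-92349139, minus strand: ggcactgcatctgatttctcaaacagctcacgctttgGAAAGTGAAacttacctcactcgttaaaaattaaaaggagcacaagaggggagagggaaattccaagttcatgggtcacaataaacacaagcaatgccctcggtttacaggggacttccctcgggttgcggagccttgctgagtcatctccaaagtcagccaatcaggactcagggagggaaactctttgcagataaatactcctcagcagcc
The match farthest from the start began 78 bases before it in Isg15, 109 in Ifit1, 130 in Bst2 and 213 in Cxcl10.

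Macrophage genes rose alongside. Of 19 macrophage markers 13 rose and 2 fell (median 0.81), and of 18 genes of lipid-associated macrophages 12 rose and 2 fell (median 0.69). Mpeg1, a pore protein of macrophages, ran from 2.05 through 2.52 to 3.98 RPKM in wild type and from 6.04 through 14.8 to 23.9 RPKM in Ucp1-KO (1.97 ± 0.27). Gpnmb, a lysosomal glycoprotein of lipid-laden macrophages, ran from 0.627 through 1.00 to 1.47 RPKM and from 3.95 through 15.5 to 35.6 RPKM (3.03 ± 0.37), and Lgals3, galectin-3, from 4.53 through 6.17 to 11.5 RPKM and from 22.6 through 63.6 to 137 RPKM (3.02 ± 0.27). None of the 3 overlapped. Ctss (2.13 ± 0.32), Lyz2 (1.47 ± 0.29) and Cd68 (1.22 ± 0.30) rose, the resident macrophage gene Cd163 (-0.72 ± 0.19) and Cd14 (-0.53 ± 0.14) fell, and Csf1r (0.46 ± 0.25) and Spp1 (0.09 ± 0.23) did not pass the test, though Csf1r was called in a fit over 16 libraries. The summed macrophage markers ran from 106.8 through 133.1 to 145.9 RPKM in wild type and from 149.9 through 319.6 to 450.5 RPKM in Ucp1-KO, so every Ucp1-KO library lay above every wild-type library. The part of macrophage content in the interferon and MHC results was not tested.

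**Figure D4:**
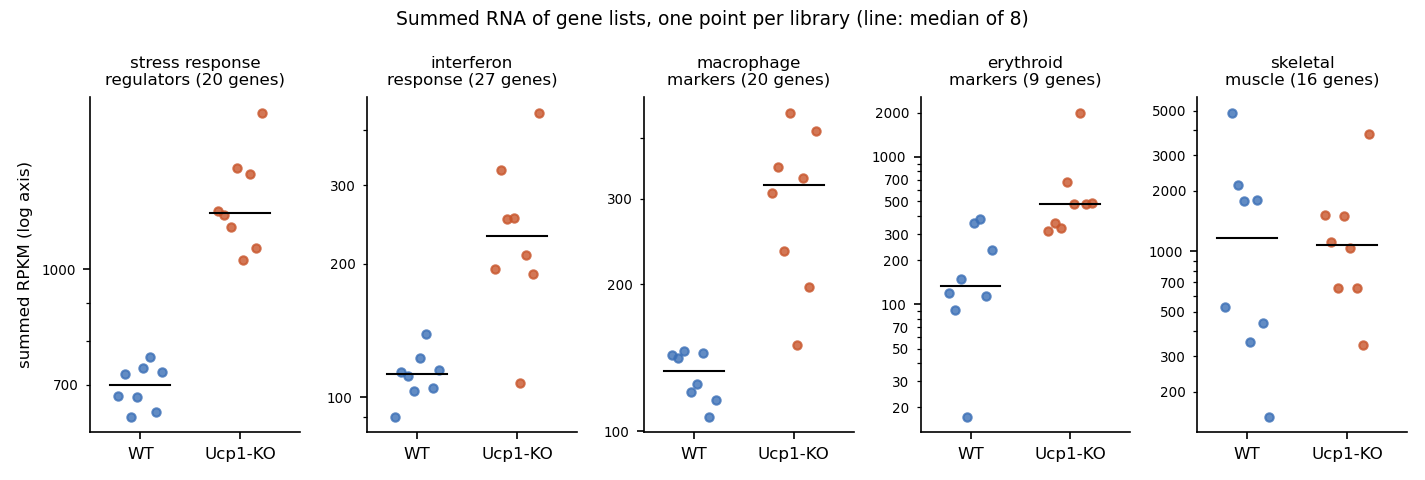
Summed RPKM (vertical axis, logarithmic) of 5 gene lists in each wild-type (WT, blue) and Ucp1-KO (orange) brown fat library at 20 °C; the line is the median of 8. The stress response and macrophage sums do not overlap between genotypes, 1 Ucp1-KO library lies inside the wild-type interferon range, and the muscle sums run from 149.3 to 4904 RPKM in wild type and from 340.4 to 3857 RPKM in Ucp1-KO.

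T cell markers were low in both genotypes, their sum running from 5.24 to 6.65 RPKM in wild type and from 6.13 to 13.7 RPKM in Ucp1-KO, and 2 of 12 rose, Cd4 (0.52 ± 0.20) and Cd2 (0.48 ± 0.20). At least 1 of the calls was lost without any 1 of libraries 2 to 10, 12, 14 and 16, and both without libraries 2 and 16 together or with no filter on low values. Of 4 tested B cell and 4 tested neutrophil markers 0 passed the test. All 6 tested erythroid genes rose (median 1.83): Hbb-bs, a beta globin, rose by 1.93 ± 0.47 and Alas2, the red cell form of the heme enzyme, by 1.48 ± 0.33, and reads of the paired globin copies may be shared. Their summed level ran from 17.2 through 134.1 to 379.5 RPKM in wild type and from 316.1 through 479.4 to 2000 RPKM in Ucp1-KO, the top value being library 14. Alas2 ran from 0.543 to 4.97 RPKM in wild type and from 4.59 to 31.9 RPKM in Ucp1-KO. The part of blood in the Alas1 and iron results was not tested.

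Of 12 endothelial markers 3 rose and 2 fell, Cldn5 rising by 0.95 ± 0.19 and Flt1 falling (-0.34 ± 0.11). Without library 6 the counts were 5 and 1, and the 2 became 1 without library 8; Flt1 lost its call in both cases, with transcripts summed and in a fit over 16 libraries. Of 15 stromal markers 4 fell, the pericyte genes Cspg4 (-0.51 ± 0.10) and Rgs5 (-0.51 ± 0.14, a call lost with transcripts summed) among them, and 2 without library 5, 10 or 11. Skeletal muscle markers gave 0 of 16 calls by limma and 0 at an unadjusted p under 0.05, with sums from 149.3 to 4904 RPKM in wild type and from 340.4 to 3857 RPKM in Ucp1-KO. Of 24 extracellular matrix genes 7 rose and 0 fell, among them Sparc (0.55 ± 0.10) and the basement membrane collagens Col4a1 (0.49 ± 0.11) and Col4a2 (0.49 ± 0.10), while Col1a1 did not pass the test (0.41 ± 0.24). Quantile normalization left 4, without Col4a1. Of 16 proliferation genes 7 rose, Mki67 from a mean of 0.225 to 1.01 RPKM (0.70 ± 0.18).

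Secreted factors of brown fat rose more often than they fell, 10 against 5 of 19. Ptgds, which makes prostaglandin D2, ran from 0.258 through 1.88 to 2.96 RPKM in wild type and from 28.5 through 50.9 to 111 RPKM in Ucp1-KO (4.43 ± 0.31, limma, adjusted p = 2.76e-16). Adiponectin, Adipoq, ran from 675 through 746 to 958 RPKM and from 417 through 488 to 592 RPKM (-0.65 ± 0.15), and Nrg4, a factor released by brown fat, fell by 0.37 on the log2 scale. Leptin, Lep, did not pass the test (-0.42 ± 0.36, adjusted p = 0.383). Of 15 white depot and adipocyte genes 3 rose and 3 fell (median -0.11), against 24.7% and 13.1% of all genes; 2 rose after median-ratio scaling and with transcripts summed, and 1 after quantile normalization. Among those that fell, Rbp4, the retinol carrier, ran from 75.8 through 108 to 152 RPKM and from 13.9 through 19.6 to 29.5 RPKM (-2.38 ± 0.20). Cfd, adipsin, ran from 498 through 638 to 1173 RPKM and from 126 through 195 to 278 RPKM (-1.83 ± 0.34). Car3, a carbonic anhydrase gene outside that list, fell too, from 1046 through 1498 to 1994 RPKM and from 209 through 307 to 433 RPKM (-2.19 ± 0.21). Npr3, the natriuretic peptide clearance receptor, went the other way, from 6.18, 6.66 and 10.9 RPKM to 29.5, 44.4 and 81.8 RPKM (2.48 ± 0.32).

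Clock genes fell in 7 of 17 cases and rose in 3. The output genes Dbp (-0.79 ± 0.21), Hlf (-0.72 ± 0.12) and Tef (-0.62 ± 0.11) and the repressor Per3 (-0.78 ± 0.15) fell, while Arntl, which encodes BMAL1 (0.90 ± 0.14), Clock (0.50 ± 0.07) and Nr1d1 (0.63 ± 0.22, a call lost without library 6 or 8 and after quantile normalization) rose, and 5 rose without library 4 or 15. The labels used here give no time of sampling. Of 19 immediate early genes 8 rose and 0 fell, with Dusp1 (1.64 ± 0.15) and Myc (1.27 ± 0.23) next to Atf3, while Fos (-0.15 ± 0.39) and Egr1 (-0.14 ± 0.33) did not pass the test.

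The same genotype contrast was available at 30 °C, in 16 other libraries, and the difference between the 2 contrasts was tested in the same fit. It was positive (more positive at 20 °C) for 1761 genes (11.9%) and negative for 6001 (40.5%), with a median of -0.24 over all genes. Positive genes made up 22.7% of these calls, 47.3% after median-ratio scaling and 52.6% after quantile normalization, which moved the median to -0.05 and 0.00, so list shares are read relative to that shift. For Ptgds the genotype difference changed sign, from -4.21 at 30 °C to 4.43 at 20 °C, an interaction of 8.64 ± 0.43 (limma, adjusted p = 3.68e-20). Cntfr (-1.82 at 30 °C, 2.53 at 20 °C), Sgk2 (-1.73 and 2.79), Trim2, a ubiquitin ligase (-0.61 and 1.12), and Ppargc1a (-0.92 and 2.27) turned in the same direction, and the intermediate filament gene Vim turned in the opposite one (1.58 and -1.37).

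Fgf21 was higher in Ucp1-KO at both temperatures, by 1.47 at 30 °C and 4.69 at 20 °C (interaction 3.22 ± 0.32, limma, adjusted p = 3.62e-11). Gdf15 differed by 3.01 at 30 °C (interaction 1.83 ± 0.50, adjusted p = 0.00199), Mthfd2 by 1.20 (2.26 ± 0.29) and Trib3 by 1.09 (1.94 ± 0.26). Atf5 did not differ past the threshold at 30 °C (0.22) and the interaction was 1.76 ± 0.19, whereas Atf3 differed by 2.70 at 30 °C and its interaction did not pass the test (0.06 ± 0.37, adjusted p = 0.902). Scd3 (0.02 at 30 °C, interaction 4.67 ± 0.35), Acot2 (-0.36, 3.32 ± 0.24), Irf4 (-0.04, -2.58 ± 0.37) and Cpne5, a calcium-dependent membrane-binding protein (-0.30, 3.21 ± 0.21), were near 0 at 30 °C. The Ucp1 difference itself was larger at 30 °C, -3.51.

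By list, positive interactions were frequent for brown adipocyte genes (13 of 19), mitochondrial fatty acid oxidation (14 of 22), the TCA cycle (18 of 28) and thioesterases (10 of 13). At 30 °C, 13 brown adipocyte genes were lower in Ucp1-KO and 2 higher. The counts were 17 and 2 for oxidation, 19 and 3 for the TCA cycle, and 3 and 3 for thioesterases. At 20 °C, 6 brown adipocyte, 6 oxidation and 9 TCA cycle genes were higher, shares near the background. Serine and folate enzymes gave 8 positive and 4 negative of 23, and stress response regulators 6 and 6 of 20. Amino acid transporters gave 2 and 8 of 17, cytosolic synthetases 8 and 4 of 20, and unfolded protein response genes 4 and 5 of 20. These lists rose at 30 °C too. There 15 serine and folate enzymes were higher in Ucp1-KO and 1 lower, and 12 regulators higher and 1 lower. The counts higher at 30 °C were 13 for transporters, 18 for cytosolic synthetases and 16 for unfolded protein response genes, with 0 lower in each. Negative interactions took 26 of 27 interferon genes (median -1.49), 19 of 20 MHC genes, 15 of 19 macrophage markers and 19 of 24 extracellular matrix genes. After median-ratio scaling the macrophage count fell to 9 and the matrix count to 12. At 30 °C, 27 of 27 interferon genes and 17 of 19 macrophage markers were higher in Ucp1-KO. Irf7 differed by 3.59 at 30 °C and 1.97 at 20 °C (interaction -1.62 ± 0.37), and Mpeg1 by 3.44 and 1.97 (-1.47 ± 0.39).

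**Figure D5:**
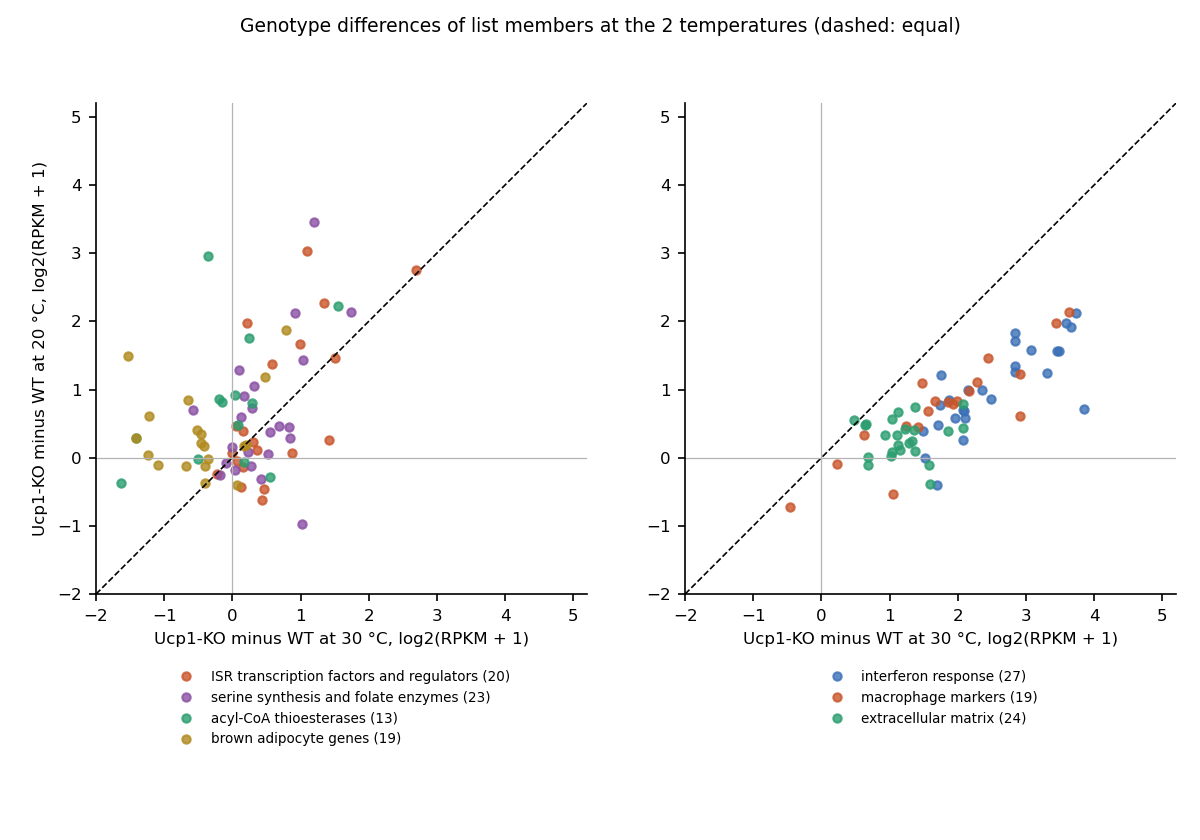
Genotype difference at 20 °C (vertical axis) against that at 30 °C (horizontal axis), both Ucp1-KO minus wild type in log2(RPKM + 1), for tested members of 4 lists (left) and 3 lists (right), with the dashed line marking equal differences. Most thioesterase and brown adipocyte genes lie above the line, and nearly all interferon genes lie below it and to the right of 0.

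The genotype difference at 20 °C was also compared with that in iWAT of the same condition, in a fit over all 96 libraries. The difference between depots was positive (more positive in iBAT) for 7919 of 16310 genes (48.6%) and negative for 1147 (7.03%), with a median of 0.31. Positive genes made up 87.3% of the calls, 56.1% after median-ratio scaling and 44.9% after quantile normalization, which moved the median to 0.06 and -0.02. Alas1 differed by genotype in iBAT and by 0.05 in iWAT, an interaction of 2.43 ± 0.18 (limma, adjusted p = 3.72e-20). Cpne5 (2.92 ± 0.18), Mal (3.18 ± 0.20), Map1b (2.56 ± 0.19) and Gtpbp2 (1.63 ± 0.12) were among the positive interactions with the smallest p-values. Fgf21 rose by 1.77 in iWAT (interaction 2.92 ± 0.32) and Gdf15 by 1.68. The genotype difference in iWAT was 2.56 for Scd3 and 2.35 for Acot2.

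Elovl3 had the reverse pattern, with a difference of 4.07 in iWAT and 1.87 in iBAT (interaction -2.19 ± 0.46), and Ucp1 was 1.48 higher in Ucp1-KO iWAT while lower in iBAT. Negative depot interactions took 15 of 19 brown adipocyte genes (median -1.24), 23 of 28 TCA cycle genes and 26 of 37 complex I subunits. In iWAT alone, 15 brown adipocyte genes, 22 TCA cycle genes and 31 complex I subunits were higher in Ucp1-KO, against 2, 1 and 0 lower. Positive ones took 25 of 27 interferon genes (median 1.51), all 20 MHC genes, 17 of 20 macrophage markers and all 12 T cell markers. These include decreases in iWAT: 18 interferon genes were lower in Ucp1-KO there and 1 higher. All 20 MHC genes, 18 macrophage markers and all 12 T cell markers were lower in iWAT, while 2 T cell markers rose in iBAT. For the synthesis and stress lists the counts depended more on scaling: cytosolic synthetases gave 17 positive of 20, or 13 and 11 after the 2 scalings, and stress response regulators 12 positive and 1 negative of 20, or 9 and 4 and then 8 and 5. These too include decreases in iWAT, where 6 synthetases were higher in Ucp1-KO and 5 lower, and 7 regulators higher and 6 lower. Serine and folate enzymes gave 16 positive and 1 negative of 23, but in iWAT 15 were lower and 4 higher. The labels used here do not link the iBAT and iWAT samples of an animal. The depot fit therefore treated the 96 libraries as independent, and its p-values leave out this pairing.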

How the data were processed

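RNA was extracted with TRIsure from frozen tissue and made into stranded mRNA libraries, per the labels' protocols. CASAVA and bcl2fastq are named in the submitters' processing notes; aligner, counting tool, genome build and annotation were not given in the sources used here. The authors deposited 1 RPKM value per transcript and library (168326 transcripts, 96 libraries). Rows without a gene identifier (13.8% of transcripts, 9.04 to 17.4% of summed RPKM per library) were left out. The transcript with the highest mean stood for each of 29072 gene symbols, so reads shared by transcripts or by similar genes may be split. Because the file holds RPKM and not counts, the count test foreseen for counts was not used. Depth was recovered from the spacing of low values, and of the values worth 20 reads or fewer, 95.0 to 95.4% then lay within 0.05 of a whole read; intervals of counting error alone are not given.

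Genes were kept where 8 or more of the 48 iBAT libraries reached 0.5 RPKM, and limma 3.58.1 (R 4.3.3, trend on the mean) was fitted to log2(RPKM + 1) over the 6 iBAT groups, or over 12 groups and 96 libraries for the comparison with iWAT, with Benjamini-Hochberg adjustment over all genes tested. The fit was tested on simulated data. Ucp1, the 12 largest called differences each way among genes whose higher group mean reached 5 RPKM, the members of each of 49 gene lists with the smallest p-values and of opposite sign, and the interactions with the smallest p-values were named. Further members of the lists were named to show a family or pathway. A few members that this rule would name are not reported here. The members and lists were chosen with earlier results of these data known, so they are not independent evidence. The lists hold 906 genes of the table, 866 of them tested; 934 list entries matched by symbol, 11 by gene identifier and 10 not at all. Promoter sequences are from RefSeq on GRCm38.p6, matched for 11001 of the 14807 genes tested; this build serves only the sequences. Alternatives were another pseudocount (0.1 RPKM), no filter or a filter of 2 RPKM, 2 scalings, a fit over 16 libraries, summed transcripts and leaving out each library.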

Additional observations from a re-analysis of the deposited data

Results flagged for a closer look

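Single libraries stood apart from the other 7 of their genotype in 4 of 44 sets of 8 values checked, by Dixon's criterion for 8 samples; chance alone marks about 1 in 20 sets. Gdf15 was 0.425 RPKM in wild-type library 4, still under the lowest Ucp1-KO value. The summed skeletal muscle markers reached 4904 RPKM in wild-type library 2 and 3857 RPKM in Ucp1-KO library 16, and the summed erythroid markers reached 2000 RPKM in Ucp1-KO library 14. Without libraries 2 and 16 together, 3241 genes were higher and 2030 lower.

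The genotype difference at 20 °C differed from that at 30 °C (limma interaction, past the threshold) for each of 14 genes chosen with these data known. It was larger at 20 °C, or positive at 20 °C alone, for Ptgds (8.64), Scd3 (4.67), Acot2 (3.32), Fgf21 (3.22), Ppargc1a (3.19), Mthfd2 (2.26), Trib3 (1.94), Gdf15 (1.83), Elovl3 (1.09) and Alas1 (0.99). Ucp1 had an interaction of 1.61 because its decrease was smaller at 20 °C. Negative interactions were found for Irf4 (-2.58), Rbp4 (-2.56) and Cxcl10 (-1.61). Over all genes the interaction was positive for 1761 and negative for 6001, and the interaction between depots was positive for 7919 and negative for 1147.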

How the results depend on the processing

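No paired analysis was possible because every library has its own number and the labels used here give no pairing. Leaving out each library in turn gave 3267 to 3811 higher and 1752 to 2091 lower genes at 20 °C, and 1657 to 1773 positive and 5651 to 6245 negative interactions with temperature. The difference at 20 °C kept its direction and call under every alternative for the same 14 genes. Most of these were chosen among the largest differences, so that outcome was likely in advance. Over the named genes at 20 °C, leaving out 1 library lost the call in 60 single-gene refits, gained it in 9 and left 3659 unchanged. Under the other settings the call was lost in 37, gained in 22 and unchanged in 1802. At 20 °C quantile normalization, which removes a shift common to most genes, gave 2664 higher and 3227 lower genes, median-ratio scaling 3123 and 2887, and summing the transcripts of a gene 4446 and 1997. The temperature interaction was positive for 3353 and 3468 genes and negative for 3733 and 3131 under the 2 scalings, and the depot interaction was positive for 3801 and 2886 and negative for 2970 and 3538. Acot2 reversed in the depot comparison after quantile normalization (0.60 to -0.19), a depot difference not used above. With a pseudocount of 0.1 RPKM differences of low genes grew, to 3.55 for Slc7a5, 2.52 for Acox2 and 3.76 for Cxcl10 at 20 °C, and the Cxcl10 temperature interaction lost its call (-0.52). With transcripts summed, the differences at 20 °C were 2.92 for Slc7a5, 2.58 for Acox2, 2.48 for Bmp8b, 2.24 for Aldh18a1, 1.94 for Bcat1, 1.25 for Mki67 and -0.74 for Fgfr2. The Ucp1 temperature interaction was 0.74 after quantile normalization. Without the filter on low values the calls of COX1, ND4L, ND5 and ND6 were lost at the same differences; the cause was not tested. Depth limits values under about 0.5 RPKM, which rest on few reads. Cell content, blood and muscle in the dissected tissue were not measured apart from their marker RNA.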

Other observations

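Genes next to Ucp1 were looked at after their values had been seen. Of the 25 named neighbours on each side of Ucp1 in RefSeq order, 50 tested in all, 16 were higher and 12 lower in Ucp1-KO brown fat at 20 °C, which is 56.0% called against 37.8% of all genes tested. Scoc, a Golgi-associated coiled-coil protein gene, ran from 6.22 to 7.65 RPKM in wild type and from 1.77 to 2.38 RPKM in Ucp1-KO, a difference of -1.42 ± 0.08 (limma); it differed by -1.39 at 30 °C and by -1.19 in iWAT at 20 °C. Rnf150, a RING finger gene, ran from 3.97 to 5.70 RPKM and from 0.344 to 0.791 RPKM (-1.92 ± 0.11), with -0.85 at 30 °C and -1.01 in iWAT. Mri1, a methionine salvage enzyme, ran from 3.80 to 5.09 RPKM and from 1.49 to 2.89 RPKM (-0.72 ± 0.10) but differed by -0.01 at 30 °C. Elmod2 fell at 20 °C (-0.57) and was 0.40 higher at 30 °C, while Gipc1 (1.05) and Tbc1d9 (0.97) rose at 20 °C. Whether these differences come with the chromosomal region around the allele was not tested.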
